A study of Rattus norvegicus with 14 samples.

Results

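Genes of the hepatic scar and its contractile cells were followed across normal, regenerating and preneoplastic rat liver. The set held 10 genes: the fibrillar collagen genes Col1a1, Col1a2 and Col3a1, the basement membrane genes Col4a1, Col4a2 and Lama5, the crosslinking enzyme gene Lox, the contractile genes Tagln and Acta2, and the protease inhibitor gene Timp1. A gene was read at an array probe set that carried its symbol and no other. This gave 9 of the 10 genes, each with 1 probe set, out of 14497 genes measured, and Col4a2 was not analysed here. Of the 9 genes, 8 had a mean level above that of the median gene, and Lox lay below it.

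The 12 animals were male F344 rats in 4 groups of 3. SF Rapamycin and SF Placebo foci came from the Solt-Farber (SF) model of liver carcinogenesis, in which rats received diethylnitrosamine at 200 mg/kg on day 1, a 2.5 mg pellet of 2-acetylaminofluorene (AAF) with a release time of 14 days on day 14, and a partial hepatectomy on day 21. At the hepatectomy a pellet with a release time of 21 days was placed, which held either rapamycin at 2.5 mg/kg per day or placebo, and the rats were killed on day 70. Persistent focal lesions positive for the placental glutathione S-transferase (GSTP) were cut from fixed, embedded sections by laser. AAF/PH liver came from rats that had the same kind of AAF pellet placed on day 1, underwent the hepatectomy on day 7 and were killed on day 14, and its tissue feature is labelled as oval cells, the progenitor-like cells of injured rat liver. Adult Liver came from unmanipulated rats. All foci and AAF/PH groups thus shared AAF and hepatectomy, while diethylnitrosamine was given to the foci groups alone. The foci were dissected lesions and the other 2 groups were captured liver tissue, so the kind of tissue captured, the time since hepatectomy and the carcinogen cannot be told apart as sources of a difference between foci and AAF/PH liver. Nor can the kind of tissue captured be told apart from the treatments where foci or AAF/PH liver are set against Adult Liver.

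Hepatic stellate cells store vitamin A in the healthy liver, and on injury they turn into myofibroblasts that carry smooth muscle actin and secrete fibrillar collagen. Portal fibroblasts and vascular smooth muscle make several of the same proteins. Type IV collagen and laminins form basement membranes, which underlie bile ducts and blood vessels. Lysyl oxidase crosslinks the secreted collagen, and the tissue inhibitors of metalloproteinases protect it from breakdown.

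Array signal is given as the deposited linear intensity, and differences as log2 values with the standard error of a limma fit to all 12 animals. Levels of different genes are not comparable on this scale. The median intensity over all probe sets lay between 19.84 and 25.37 over the 14 arrays. Rapamycin animal 3, which the submitters' clustering set apart, was measured on 3 arrays whose interquartile range of log2 intensity ran between 1.57 and 1.71, against 1.98 to 2.80 for all other arrays. Its value is the log2 average of those arrays. The interquartile range was 1.98 to 2.26 in AAF/PH liver and 2.36 to 2.80 in Adult Liver, without overlap. The median intensity was 22.7 to 23.7 in AAF/PH liver and 19.8 to 21.0 in Adult Liver. Gstp1, by whose protein the foci were chosen, had a geometric mean of 3118 in SF Rapamycin foci, 4023 in SF Placebo foci, 182 in AAF/PH liver and 109.6 in Adult Liver. The summed intensity of 6 hepatocyte markers was 15338 to 24067 in SF Rapamycin foci, 17710 to 20853 in SF Placebo foci, 13781 to 15684 in AAF/PH liver and 23748 to 26042 in Adult Liver. Such sums, here and below, weigh the brightest markers of a list most.

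In AAF/PH liver, 8 of the 9 genes rose over Adult Liver and none fell, while 7.54% of all genes were called higher and 20.0% were called in either direction (limma, adjusted p under 0.05). The median difference of the 9 genes was 2.61 on the log2 scale, and that of all genes was 0.12. With each array centred on its median gene, which removes that shift, the median of the 9 genes was 2.50 and the same count of 8 was called. All 9 genes had every AAF/PH animal above every Adult Liver animal, as did 27.4% of all genes. Among all 14497 genes ranked by the size of their rise, 6 of the 9 genes stood in the top 25. In bulk tissue, more cells of a type and more RNA per cell cannot be told apart. Each p-value sets a difference against the spread between animals, estimated by limma over the 4 groups together.

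The fibrillar collagen genes encode the rope-like collagens of scar tissue. Col1a1 (probe set 10737532, GRCr8 chr10:80380458-80397461) encodes the alpha 1 chain of type I collagen. Its intensity was 126, 103 and 121 in the 3 animals of SF Rapamycin foci, 170.2, 129 and 147 in SF Placebo foci, 316, 2028.5 and 571 in AAF/PH liver and 58.4, 62.6 and 62.3 in Adult Liver. AAF/PH animal 2 stood far above the others, and every AAF/PH animal was above every animal of the other groups. The difference between AAF/PH and Adult Liver was 3.55 ± 0.45 (11.7-fold, adjusted p = 7.57e-05), rank 3 among the rises of all genes. Without AAF/PH animal 2 the fold was 6.95 (adjusted p = 1.11e-05), and without animal 1 it was 17.6.

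Col1a2 (probe set 10853559, GRCr8 chr4:33518557-33553484) encodes the partner chain, alpha 2. Its intensity was 79.7, 71.6 and 71.6 in SF Rapamycin foci, 100.3, 84.6 and 96.3 in SF Placebo foci, 165, 695 and 253 in AAF/PH liver and 49.4, 44.8 and 49.9 in Adult Liver. The groups did not overlap, and the animals of AAF/PH liver held the same order as for Col1a1. AAF/PH liver was 2.68 ± 0.36 above Adult Liver (6.4-fold, adjusted p = 0.000122), or 4.26-fold without AAF/PH animal 2.

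Col3a1 (probe set 10923052, GRCr8 chr9:54866646-54902578) encodes type III collagen, which forms fine reticular fibres. Its intensity was 115, 108 and 84.0 in SF Rapamycin foci, 135, 134 and 145 in SF Placebo foci, 293, 693 and 412 in AAF/PH liver and 69.0, 64.3 and 78.3 in Adult Liver. AAF/PH animal 2 was again the highest. The difference of AAF/PH from Adult Liver was 2.64 ± 0.25 (6.22-fold, adjusted p = 6.66e-06).

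Basement membrane genes rose with less spread between animals. Col4a1 (probe set 10789594, GRCr8 chr16:84885597-84996482) encodes the alpha 1 chain of type IV collagen, the network-forming collagen. It read 62.7, 62.8 and 54.4 in SF Rapamycin foci, 76.1, 70.3 and 74.1 in SF Placebo foci, 211, 249 and 297 in AAF/PH liver and 39.1, 38.5 and 45.5 in Adult Liver. The 4 groups did not overlap at any point of that order. AAF/PH liver was 2.61 ± 0.17 above Adult Liver (6.11-fold, adjusted p = 3.29e-07).

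Col4a2, the gene of the alpha 2 chain that joins alpha 1 in the same trimer, lies head to head with Col4a1 (GRCr8 chr16:84749672-84885520), with 76 bases between the annotated gene ends. That stretch is shown because it lies directly before the starts of both genes, of which only Col4a1 was measured. It is chr16:84885521-84885596 of GRCr8, plus strand, from RefSeq, and capitals mark the GC box GGGCGG, found here on the other strand.
Col4a1 and Col4a2: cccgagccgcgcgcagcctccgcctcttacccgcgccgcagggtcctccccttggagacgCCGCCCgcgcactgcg
GGGCGG was searched on both strands and occurs in 33.1% of 33469 RefSeq promoter windows of 300 bases, so the match is a description of these letters and no evidence of a site.

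Lama5 (probe set 10852270, GRCr8 chr3:187647904-187695974) encodes the laminin alpha 5 chain of epithelial and vascular basement membranes. It read 26.9, 26.4 and 29.1 in SF Rapamycin foci, 27.2, 26.3 and 30.6 in SF Placebo foci, 166, 111 and 213 in AAF/PH liver and 18.0, 17.4 and 18.7 in Adult Liver. Here AAF/PH animal 2, the highest for the fibrillar collagens, was the lowest. The rise in AAF/PH over Adult Liver was 3.13 ± 0.21 (8.76-fold, adjusted p = 3.38e-07), rank 5 among the rises of all genes. The SF Rapamycin animals lay within the range of the SF Placebo animals, and all foci lay above Adult Liver.

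Lox (probe set 10804463, GRCr8 chr18:48162889-48175640) encodes lysyl oxidase, which crosslinks collagen and elastin. Its intensity was low throughout, with 12.8, 13.4 and 15.9 in SF Rapamycin foci, 20.8, 19.6 and 22.6 in SF Placebo foci, 39.6, 28.8 and 48.5 in AAF/PH liver and 11.3, 10.3 and 10.0 in Adult Liver. No group overlapped another. AAF/PH liver exceeded Adult Liver by 1.86 ± 0.19 (3.62-fold, adjusted p = 1.57e-05).

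The contractile genes split in size. Tagln (probe set 10917034, GRCr8 chr8:55121647-55127121) encodes transgelin, an actin-binding protein of smooth muscle and myofibroblasts. It read 46.4, 49.3 and 35.7 in SF Rapamycin foci, 77.0, 61.3 and 78.3 in SF Placebo foci, 272, 292 and 426 in AAF/PH liver and 56.9, 51.1 and 78.5 in Adult Liver. AAF/PH liver stood apart from all others at 2.40 ± 0.22 above Adult Liver (5.29-fold, adjusted p = 5.45e-06), and SF Placebo foci overlapped Adult Liver.

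Acta2 (probe set 10940457, GRCr8 chr1:241159723-241172503) encodes smooth muscle alpha-actin, the usual marker of activated stellate cells, which vascular smooth muscle also makes. It was the only one of the 9 genes not called in AAF/PH liver against Adult Liver. Its intensity was 256, 276 and 137 in SF Rapamycin foci, 213, 193 and 338 in SF Placebo foci, 419, 599 and 667 in AAF/PH liver and 293, 248 and 381 in Adult Liver. All AAF/PH animals were above all animals of the other groups, and both kinds of foci overlapped Adult Liver. The difference was 0.86 ± 0.29 (95% confidence interval 0.24 to 1.49, adjusted p = 0.0513), and without AAF/PH animal 1 it was 1.06 (adjusted p = 0.0422).

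The 250 bases before the annotated start of Acta2 are shown because the gene is a textbook target of serum response factor, which binds the CArG box, in the contractile programme. The stretch is chr1:241172504-241172753 of GRCr8, minus strand, from RefSeq, and capitals mark CArG boxes with at most 1 mismatch to the consensus.
Acta2: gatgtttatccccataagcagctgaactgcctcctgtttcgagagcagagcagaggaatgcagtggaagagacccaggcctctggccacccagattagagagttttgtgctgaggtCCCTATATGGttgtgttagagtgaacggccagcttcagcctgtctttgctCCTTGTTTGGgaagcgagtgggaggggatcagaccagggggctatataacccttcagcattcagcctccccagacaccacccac
The boxes begin 134 and 84 bases before the start, neither matches the strict consensus, and each reads as a match on both strands. Such a box with at most 1 mismatch occurs in 21.3% of the 33469 promoter windows and the strict box in 1.64%. RefSeq windows were matched for 6 of the 10 genes, namely Acta2, Col1a2, Col4a1, Col4a2, Lama5 and Timp1, and among them Acta2 alone held a box of either kind. The start used for the Col1a2 window may lie inside its transcript. Tagln, Col1a1, Col3a1 and Lox had no matched window and were not searched.

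Timp1 (probe set 10936482, GRCr8 chrX:3766509-3772578) encodes an inhibitor of matrix metalloproteinases that stellate cells secrete in injured liver. It read 76.8, 57.8 and 32.4 in SF Rapamycin foci, 53.7, 51.9 and 97.0 in SF Placebo foci, 107, 158 and 133 in AAF/PH liver and 42.8, 45.9 and 44.4 in Adult Liver. Animals of both foci groups were widely spread, and rapamycin animal 3 was below Adult Liver. AAF/PH liver was 1.57 ± 0.30 above Adult Liver (2.97-fold, adjusted p = 0.0019).

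**Figure D1:**
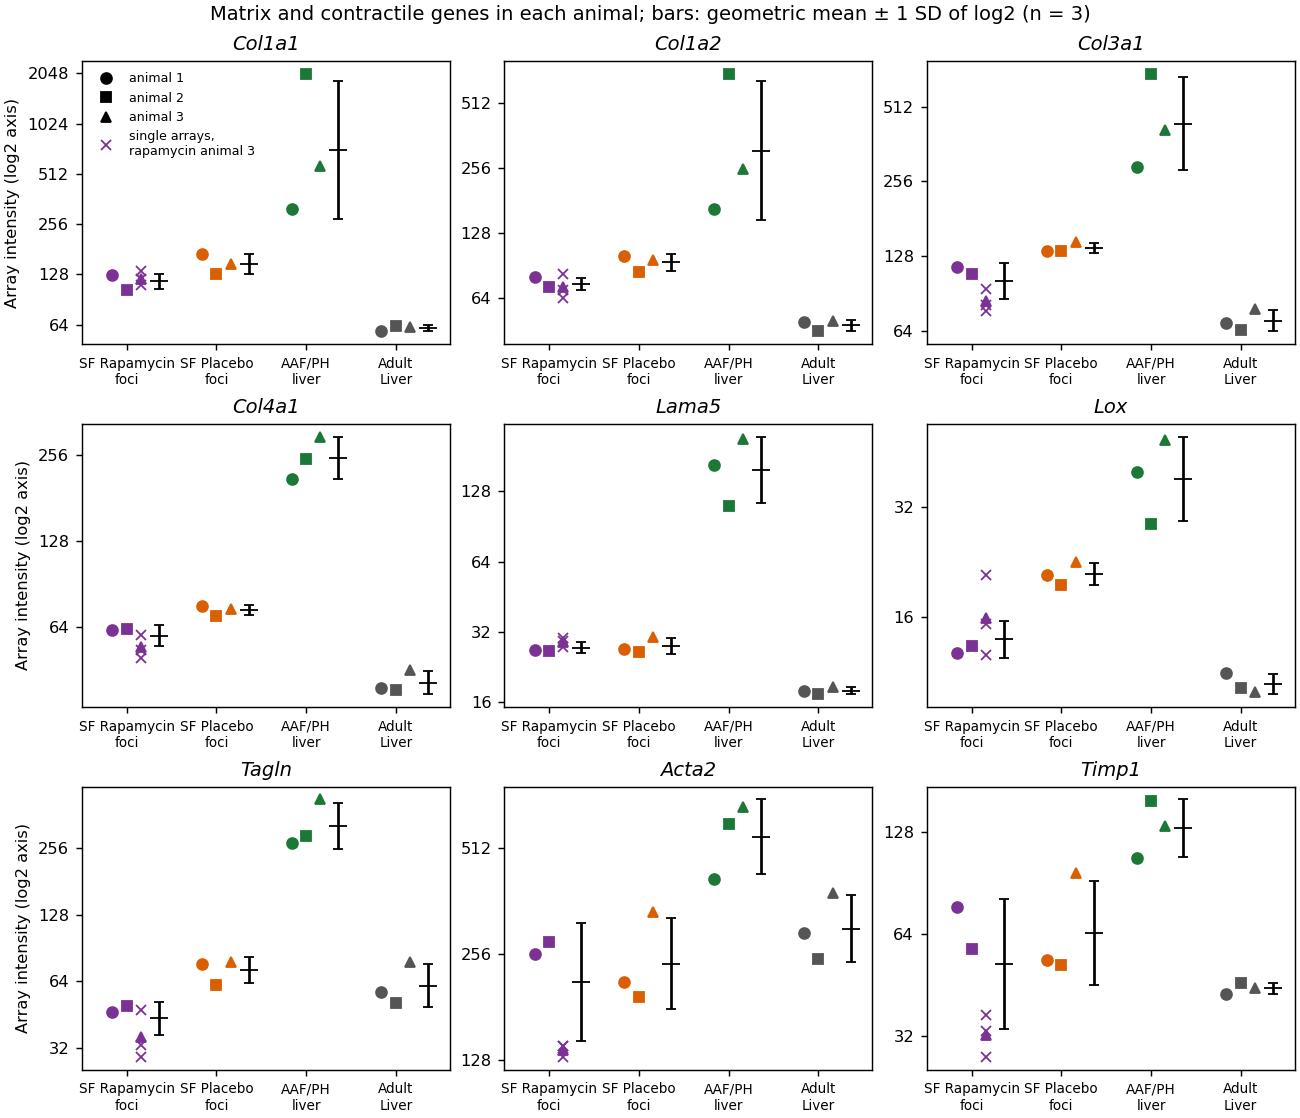
Array intensity (log2 axis) of the 9 genes in each animal of SF Rapamycin foci, SF Placebo foci, AAF/PH liver and Adult Liver. Points are animals, crosses the 3 arrays of rapamycin animal 3, and bars the geometric mean ± 1 SD of log2 intensity (n = 3). AAF/PH liver is the highest group for every gene, and its Col1a1 values span 316 to 2028.5.

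Mean levels therefore put AAF/PH liver first for all 9 genes. For Col1a1, Col1a2, Col3a1, Col4a1, Lama5, Lox and Timp1 the order below it was SF Placebo foci, SF Rapamycin foci and Adult Liver. For Tagln it was SF Placebo foci, Adult Liver and SF Rapamycin foci, and for Acta2 Adult Liver, SF Placebo foci and SF Rapamycin foci. Neighbours whose animals overlapped were both kinds of foci for Lama5, Acta2 and Timp1, SF Placebo foci and Adult Liver for Tagln and Acta2, and SF Rapamycin foci and Adult Liver for Timp1.

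In SF Placebo foci, 3 of the 9 genes rose over Adult Liver, where 2.84% of all genes were called higher and 8.22% in either direction. The comparisons of AAF/PH liver and of both kinds of foci with Adult Liver share its 3 animals. Lox was 1.00 ± 0.19 higher (2.00-fold, adjusted p = 0.0048) and Col4a1 0.84 ± 0.17 higher (1.80-fold, adjusted p = 0.00592). Col3a1 was 0.97 ± 0.25 higher (adjusted p = 0.0268), a call that was lost when any single animal of either group was left out, with adjusted p between 0.0639 and 0.105. Those fits called between 4.18% and 7.63% of all genes, beside 8.22% with all animals. The median difference of the 9 genes was 0.84, beside 0.04 for all genes.

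The other genes did not pass the test in SF Placebo foci. Col1a1 differed from Adult Liver by 1.27 ± 0.45 (adjusted p = 0.107), Col1a2 by 0.96 ± 0.36 and Lama5 by 0.64 ± 0.21, all with animals that did not overlap. In a limma fit of these 2 groups alone, which called 15.8% of all genes, all 3 were called, with adjusted p of 5.2e-05 for Col1a1, 0.00055 for Col1a2 and 0.0116 for Lama5. The 4 groups shared 1 estimate of the spread, and for Col1a1 the SD of log2 intensity was 1.37 in AAF/PH liver and at most 0.20 in the other groups. Timp1 differed by 0.55 ± 0.30 and Tagln by 0.23 ± 0.22. Acta2 lay on the other side, at -0.33 ± 0.29 (adjusted p = 0.579). In all, 7 of the 9 genes had every SF Placebo animal above every Adult Liver animal, as did 14.8% of all genes.

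In SF Rapamycin foci none of the 9 genes was called against Adult Liver, where 1.60% of all genes were called higher and 6.53% in either direction, and 3 of the 9 had an unadjusted p under 0.05 (limma), as did 26.6% of all genes. The median difference of the 9 genes was 0.53, beside 0.07 for all genes. The largest differences were those of Col1a1 at 0.93 ± 0.45 (adjusted p = 0.198), Col1a2 at 0.63 ± 0.36 and Lama5 at 0.61 ± 0.21. Col4a1 differed by 0.55 ± 0.17 (adjusted p = 0.0679), and without rapamycin animal 3 by 0.62 (adjusted p = 0.0429). The contractile genes were on the other side, Tagln at -0.49 ± 0.22 (adjusted p = 0.178) and Acta2 at -0.50 ± 0.29 (adjusted p = 0.271). All SF Rapamycin animals were below all Adult Liver animals for Tagln, as for 14.6% of all genes, and above them for 6 other genes, as for 15.1% of all genes.

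**Figure D2:**
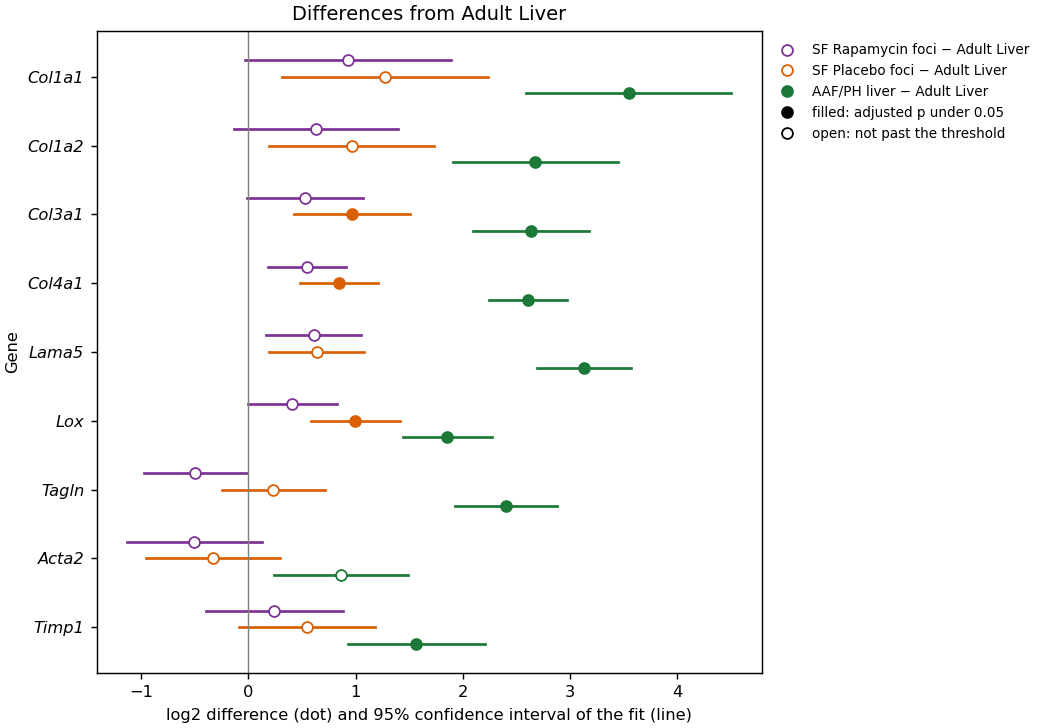
Log2 difference from Adult Liver (horizontal axis) of each gene in SF Rapamycin foci, SF Placebo foci and AAF/PH liver, with the 95% confidence interval of the limma fit (n = 3 animals per group). Filled dots passed an adjusted p of 0.05: 8 genes in AAF/PH liver, 3 in SF Placebo foci and none in SF Rapamycin foci.

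Both kinds of foci stood well below AAF/PH liver. In SF Placebo foci 8 of the 9 genes fell relative to AAF/PH liver, where 1.57% of all genes were called lower and 4.19% in either direction. All 9 had every SF Placebo animal below every AAF/PH animal, as did 12.8% of all genes, and their median difference was -1.72, beside -0.05 for all genes. Lama5 had the largest fall at -2.50 ± 0.21 (adjusted p = 1.35e-05), followed by Col1a1 at -2.28 ± 0.45 (adjusted p = 0.00834) and Tagln at -2.17 ± 0.22 (adjusted p = 4.82e-05). Without AAF/PH animal 2 the Col1a1 difference was -1.52 and the Col1a2 difference was -1.13, against -1.72 with it; without AAF/PH animal 1 that of Col1a1 was -2.87. Col4a1 was lower by 1.77 ± 0.17 on the log2 scale and Col3a1 by 1.67 ± 0.25.

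The calls of Lox, Acta2 and Col1a2 in SF Placebo foci relative to AAF/PH liver were lost in some fits that left out 1 animal, while the differences kept their direction and most of their size. Fits that left out 1 animal called between 2.28% and 3.09% of all genes here, beside 4.19% with all animals. Lox differed by -0.86 ± 0.19 (adjusted p = 0.0206) and lost its call in 4 of the 6 fits that left out 1 animal, namely AAF/PH animals 1 and 3 and placebo animals 1 and 2, with differences between -0.86 and -0.69 and adjusted p up to 0.114. Acta2 differed by -1.19 ± 0.29 (adjusted p = 0.0329) and lost its call without AAF/PH animals 2 or 3 or placebo animals 1 or 2, with differences between -1.13 and -1.04 and adjusted p up to 0.148. The Col1a2 call was lost without placebo animal 2 (-1.64, adjusted p = 0.058). Timp1 differed by -1.02 ± 0.30 (adjusted p = 0.0739) and was called without placebo animal 3 (-1.32, adjusted p = 0.0307).

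In SF Rapamycin foci all 9 genes fell relative to AAF/PH liver, where 1.87% of all genes were called lower and 4.01% in either direction. All 9 had every SF Rapamycin animal below every AAF/PH animal, as did 8.12% of all genes, and their median difference was -2.06, beside -0.01 for all genes. Tagln had the largest difference, -2.90 ± 0.22 (7.46-fold lower, adjusted p = 9.38e-06), and had rank 5 among the falls of all genes. Col1a1 differed by -2.62 ± 0.45 (adjusted p = 0.00314), or by -1.87 without AAF/PH animal 2 and -3.21 without animal 1. Lama5 differed by -2.52 ± 0.21, Col3a1 by -2.11 ± 0.25 and Col4a1 by -2.06 ± 0.17. The Col1a2 difference was -2.05 ± 0.36, or -1.46 without AAF/PH animal 2. Lox, at -1.45 ± 0.19, kept its call in every fit that left out 1 animal. Acta2 at -1.37 ± 0.29 (adjusted p = 0.0152) and Timp1 at -1.33 ± 0.30 (adjusted p = 0.02) lost theirs without AAF/PH animal 2 or 3, with adjusted p between 0.0693 and 0.0990. Those fits called 2.48% and 2.05% of all genes, beside 4.01% with all animals.

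SF Rapamycin and SF Placebo foci could not be separated by the test. None of the 9 genes and none of the 14497 genes measured was called (0.00% of all genes), and 483 genes, 3.33% of all, had an unadjusted p under 0.05 (limma). Among them were Tagln at -0.73 ± 0.22 (unadjusted p = 0.00572, 95% confidence interval -1.21 to -0.25) and Lox at -0.59 ± 0.19 (unadjusted p = 0.00871, interval -1.0 to -0.17), both with an adjusted p of 0.985. All 9 differences were below 0, with a median of -0.33 beside 0.01 for all genes. For Col1a1, Col1a2, Col3a1, Col4a1, Lox and Tagln every SF Rapamycin animal was below every SF Placebo animal, as for 2.41% of all genes.

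The remaining differences between both kinds of foci had wide intervals. That of Col1a1 ran from -1.30 to 0.61 and that of Acta2 from -0.80 to 0.45, so the data do not settle a direction for them. Lama5 was nearest to 0 at -0.03 ± 0.21 (interval -0.47 to 0.42). Rapamycin animal 3, whose arrays had a narrow signal range, was the lowest of its group for Col3a1, Col4a1, Tagln, Acta2 and Timp1 and the highest for Lama5 and Lox. Without it Acta2 differed by 0.14 and Timp1 by 0.04, the sign turned for both, while Tagln differed by -0.59 and Lox by -0.68. The part of that animal's signal range in these values was not tested.

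The 3 arrays of rapamycin animal 3 show how far the measurement itself varies. Arrays 3 and 3b held the same RNA and array 3c RNA of a new laser capture. Tagln read 29.1, 47.6 and 32.8 on them, a gap of 0.71 on the log2 scale between the arrays of the same RNA. For the other genes that gap was between 0.05 and 0.41. Lox read 12.6, 15.3 and 20.8, with the new capture the highest.

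**Figure D3:**
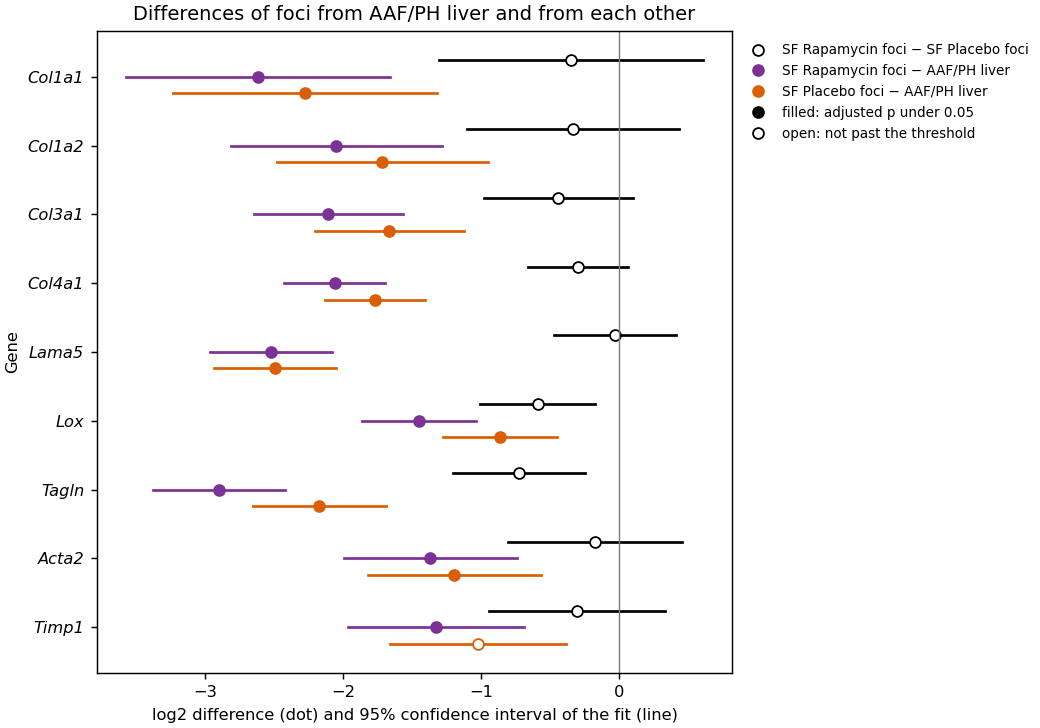
Log2 difference of SF Rapamycin foci from SF Placebo foci (black), of SF Rapamycin foci from AAF/PH liver and of SF Placebo foci from AAF/PH liver, with the 95% confidence interval of the limma fit (n = 3 animals per group). Filled dots passed an adjusted p of 0.05. All differences from AAF/PH liver lie left of 0 and none of the black dots is filled.

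The 3 AAF/PH animals did not rank alike over the 9 genes. Animal 2 was the highest for Col1a1, Col1a2, Col3a1 and Timp1 and the lowest for Lama5 and Lox. Animal 3 was the highest for Col4a1, Lama5, Lox, Tagln and Acta2. For Col1a1 the rise over the Adult Liver mean was 2.37, 5.05 and 3.23 in animals 1, 2 and 3, and for Col1a2 it was 1.78, 3.86 and 2.40. The SD of log2 intensity over AAF/PH animals was 1.37 for Col1a1 and 1.07 for Col1a2, and between 0.25 and 0.63 for the other 7 genes. In Adult Liver the SD of Col1a1 was 0.06.

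Over all 14497 genes, 31.5% were highest in AAF/PH animal 1, 33.1% in animal 2 and 35.5% in animal 3. Of the 15 other collagen chain genes measured, 5 were highest in animal 1, 9 in animal 2 and 1 in animal 3. Of 5 portal fibroblast markers and of 5 vascular smooth muscle markers, 4 each were highest in animal 2. Of 5 markers of biliary and oval cells 4 were highest in animal 3, as were 4 of 7 stellate cell markers. Animal 3 was also the highest for 18 of 23 signal genes of the TGF-beta and PDGF pathways. The same held for 13 of 21 other contractile and cytoskeletal genes and 3 of 4 endothelial markers. Animal 2 was the highest for 11 of 23 matrix protease and inhibitor genes and 10 of 20 matrix glycoprotein and proteoglycan genes. The summed intensity of the 5 portal fibroblast markers was 205, 275 and 226 in AAF/PH animals 1, 2 and 3, and that of the 5 biliary markers was 360.2, 332 and 513. For the 7 stellate cell markers the sum was 492, 468 and 626. The part of these cell types in the difference between animals was not tested.

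**Figure D4:**
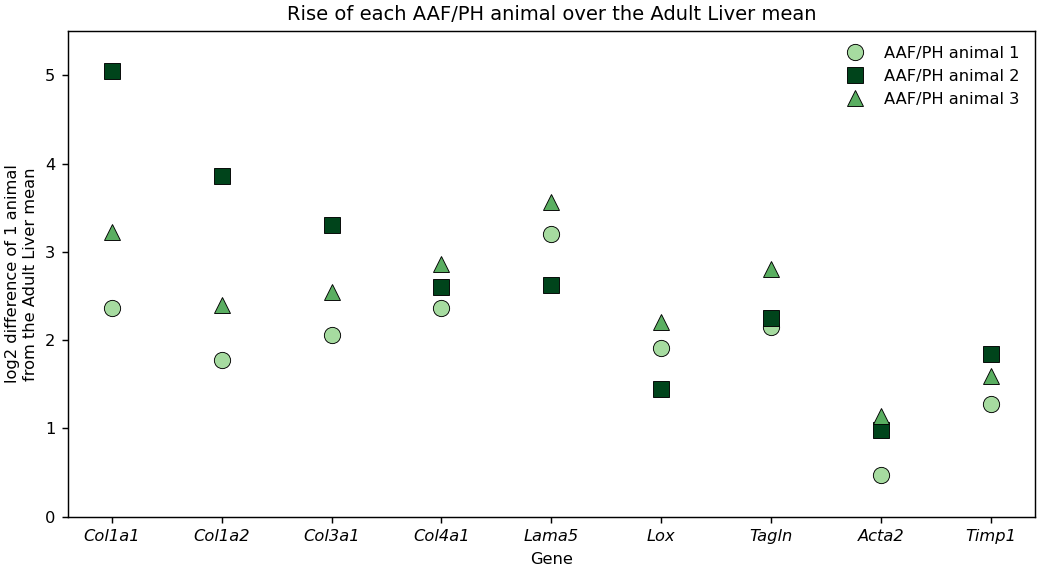
Rise of each AAF/PH animal over the Adult Liver mean (log2 difference, vertical axis) for the 9 genes. Animal 2 (squares) is the highest for the fibrillar collagen genes and Timp1 and the lowest for Lama5 and Lox.

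Matrix genes outside the set were read from lists of the same pathways. Leaving out any 1 animal lowered the number of calls over all genes in AAF/PH liver against Adult Liver, to between 10.7% and 18.7% of all genes beside 20.0% with all animals, and list counts are to be read against that. For SF Placebo foci against Adult Liver 8.22% of all genes were called with all animals. List counts with 1 animal left out are not given for that comparison. For SF Rapamycin foci against Adult Liver the share lay between 1.55% and 14.1%, beside 6.53%. In AAF/PH liver it was 14.6%, 12.4% and 15.7% without AAF/PH animals 1, 2 and 3. Without Adult Liver animals 1, 2 and 3 it was 10.7%, 18.7% and 12.3%. In SF Rapamycin foci it was 5.95%, 14.1% and 6.68% without rapamycin animals 1, 2 and 3. Without Adult Liver animals 1, 2 and 3 it was 1.55%, 6.1% and 1.96% there. Of the 15 other collagen chains, 6 rose and none fell in AAF/PH liver against Adult Liver, with a median of 0.55. When 1 animal was left out, 3 to 5 were called, the fewest without AAF/PH animal 2 or Adult Liver animal 1. Col12a1, a collagen that associates with fibrils, rose by 1.51 ± 0.29 (adjusted p = 0.00187), and the fibril-regulating type V chain genes Col5a2 and Col5a1 by 1.30 ± 0.17 and 1.18 ± 0.18. In SF Placebo and SF Rapamycin foci no other collagen chain was called against Adult Liver, with medians of 0.25 and 0.36.

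Of 11 other basement membrane genes, 5 rose and none fell in AAF/PH liver, with a median of 0.61, and 3 or 4 were called when 1 animal was left out, the fewest without AAF/PH animal 3 or Adult Liver animal 1 or 2. Sparc, a collagen-binding glycoprotein, rose by 1.64 ± 0.31 (adjusted p = 0.0021), Nid2, a nidogen that links laminin to type IV collagen, by 1.30 ± 0.16, and the laminin gamma 1 gene Lamc1 by 1.29 ± 0.26. In SF Placebo foci, where 8.22% of all genes were called, Nid2 was the only 1 of the 11 called, at 0.55 ± 0.16 (adjusted p = 0.0489). In SF Rapamycin foci none was called, and Lamc1 differed from Adult Liver by -0.14 ± 0.26.

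Genes that process and crosslink collagen gave 7 rises and no fall among 20 in AAF/PH liver, with a median of 0.30. Loxl1, a lysyl oxidase relative needed for elastic fibres, rose by 2.62 ± 0.23 (adjusted p = 3.04e-06). Plod2, which hydroxylates lysines used in crosslinks, rose by 1.99 ± 0.28, the procollagen peptidase gene Adamts2 by 1.84 ± 0.17 and Pcolce, an enhancer of procollagen cleavage, by 1.64 ± 0.24. In SF Placebo foci Loxl1 rose by 1.19 ± 0.23 (adjusted p = 0.00422) and Adamts2 by 0.90 ± 0.17 (adjusted p = 0.00389). These were the 2 calls among 20, where 8.22% of all genes were called. In SF Rapamycin foci neither was called, at 0.62 ± 0.23 and 0.55 ± 0.17, and the procollagen peptidase gene Bmp1 fell by 0.82 ± 0.22 (adjusted p = 0.0422). That call was lost without rapamycin animal 1 or 3 or Adult Liver animal 1 or 3, and 3 genes of the list were called without rapamycin animal 2.

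Of 23 matrix protease and inhibitor genes, 8 rose and none fell in AAF/PH liver, with a median of 0.57. Timp2, a relative of Timp1, rose by 1.61 ± 0.25 (adjusted p = 0.000399), the gelatinase gene Mmp2 by 1.46 ± 0.25, and the plasminogen activator genes Plat and Plau by 1.33 ± 0.24 and 1.00 ± 0.18. Mmp12, the macrophage elastase gene, had another pattern: it rose by 1.05 ± 0.22 in SF Rapamycin foci, by 2.12 ± 0.22 in SF Placebo foci and by 0.78 ± 0.22 in AAF/PH liver. It was the 1 gene of this list called in either kind of foci. No gene was called in SF Rapamycin foci without Adult Liver animal 1 or 3, and 4 were called without rapamycin animal 2.

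Of 20 matrix glycoprotein and proteoglycan genes, 11 rose and 1 fell in AAF/PH liver, with a median of 0.98. Fbn1, the gene of the microfibril protein fibrillin, rose by 1.99 ± 0.19 (adjusted p = 6.5e-06) and Ccn2, a growth factor of connective tissue, by 1.61 ± 0.22. The gene that fell was Vtn, the hepatocyte product vitronectin, which differed from Adult Liver by -1.15 ± 0.21 in SF Rapamycin foci, by -1.69 ± 0.21 in SF Placebo foci and by -1.85 ± 0.21 in AAF/PH liver, each past the test. SF Placebo foci had 6 rises and 2 falls in this list, among them Fbln1 at 0.98 ± 0.20. SF Rapamycin foci had 1 rise, Ccn2 at 0.81 ± 0.22 (adjusted p = 0.0399), and the fall of Vtn, with 1 call without rapamycin animal 1 or any 1 Adult Liver animal, and 4 without rapamycin animal 3.

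Of 21 other contractile and cytoskeletal genes, 8 rose and none fell in AAF/PH liver, with a median of 0.48, and 5 were called without AAF/PH animal 3 or Adult Liver animal 1. The intermediate filament gene Vim rose by 2.33 ± 0.33 (adjusted p = 0.00017), Tagln2 by 2.03 ± 0.27, the actin crosslinker gene Flna by 1.88 ± 0.25 and the tropomyosin gene Tpm4 by 1.54 ± 0.34. In SF Placebo foci, where 8.22% of all genes were called, Tagln2 alone rose, by 1.35 ± 0.27 (adjusted p = 0.00592). In SF Rapamycin foci no gene of the list was called, with a median of -0.17 beside 0.07 for all genes. Without rapamycin animal 3, 1 gene was called, and without rapamycin animal 2, 2 were.

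Signal genes of the TGF-beta and PDGF pathways, which drive matrix production in stellate cells, gave 11 rises and no fall among 23 in AAF/PH liver with a median of 0.50. When 1 animal was left out, 3 to 8 were called: 8 without AAF/PH animal 1, 5 and 4 without animals 2 and 3, and 3, 7 and 4 without Adult Liver animals 1, 2 and 3. Ltbp1, which stores latent TGF-beta in the matrix, rose by 1.21 ± 0.22 and the TGF-beta activating integrin gene Itgb6 by 1.11 ± 0.23. Bambi, a decoy receptor that dampens TGF-beta signalling, rose in all 3 groups, by 0.80 ± 0.18 in SF Rapamycin foci, 0.92 ± 0.18 in SF Placebo foci and 0.75 ± 0.18 in AAF/PH liver. Ltbp2, a microfibril protein, also rose in all 3, by 0.65 ± 0.17 in SF Rapamycin foci, 0.76 ± 0.17 in SF Placebo foci and 0.52 ± 0.17 in AAF/PH liver. Tgfb2, a ligand gene, rose in SF Placebo foci by 0.89 ± 0.24 and in AAF/PH liver by 0.91 ± 0.24, and differed by 0.62 ± 0.24 (adjusted p = 0.136) in SF Rapamycin foci. The 2 calls in SF Rapamycin foci became 1 without rapamycin animal 3 or Adult Liver animal 2, and none without Adult Liver animal 1 or 3.

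Among 15 collagen and laminin receptor genes, 5 rose and 1 fell in AAF/PH liver with a median of 0.49, and 3 were called without AAF/PH animal 2 or Adult Liver animal 1. Those fits called 12.4% and 10.7% of all genes, beside 20.0% with all animals. The 3 calls in SF Rapamycin foci became 1 without Adult Liver animal 1 or 3, and 6 without rapamycin animal 2. In that order the fits called 1.55%, 1.96% and 14.1% of all genes. Cd44, a receptor of hyaluronan and matrix, rose by 1.06 ± 0.26 in SF Rapamycin foci, 1.27 ± 0.26 in SF Placebo foci and 2.67 ± 0.26 in AAF/PH liver. Ddr1, a collagen-binding receptor kinase of epithelia, rose by 1.41 ± 0.26 in SF Rapamycin foci, 2.37 ± 0.26 in SF Placebo foci and 1.26 ± 0.26 in AAF/PH liver. Itga1, the collagen-binding integrin chain, fell by 1.25 ± 0.32 in SF Rapamycin foci and by 1.08 ± 0.32 in AAF/PH liver. In SF Placebo foci it differed by -0.96 ± 0.32 (adjusted p = 0.0903).

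Markers of the cells that can carry these genes were read as lists. Their counts stand beside the shares of all genes called against Adult Liver. These were 20.0% in AAF/PH liver, 8.22% in SF Placebo foci and 6.53% in SF Rapamycin foci. Of 7 stellate cell markers, Des, Hand2, Pdgfrb and Cygb rose in AAF/PH liver and Lrat, Reln and Lhx2 were not called. The count was 2 without AAF/PH animal 1 or Adult Liver animal 1 or 2. Cygb, a globin of stellate cells, rose by 1.67 ± 0.26 in AAF/PH liver and by 1.11 ± 0.26 in SF Placebo foci, and differed by 0.52 ± 0.26 (adjusted p = 0.219) in SF Rapamycin foci. It was the only 1 of the 7 markers called in SF Placebo foci, where the list median was 0.17, beside 0.04 for all genes. None of the 7 was called in SF Rapamycin foci, where the list median was -0.16, beside 0.07 for all genes. The summed stellate signal was 267 to 375 in SF Rapamycin foci, 351 to 436 in SF Placebo foci, 468 to 626 in AAF/PH liver and 304 to 356 in Adult Liver. Lrat, which makes the stored vitamin A esters, had a mean of 42.3 in AAF/PH liver and 47.7 in Adult Liver.

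Portal fibroblast markers gave 4 rises among 5 in AAF/PH liver, and none was called in either kind of foci. Their list median was 0.44 in SF Rapamycin foci and 0.53 in SF Placebo foci, beside 0.07 and 0.04 for all genes. The summed portal fibroblast signal was 151 to 205 in SF Rapamycin foci and 180 to 228 in SF Placebo foci. It was 205 to 275 in AAF/PH liver and 118 to 137 in Adult Liver. Thy1, a surface marker of portal fibroblasts, rose by 1.23 ± 0.27 in AAF/PH liver. None of 5 vascular smooth muscle markers was called in any of the 3 groups, Myh11 differing from Adult Liver by -0.22 ± 0.19 in SF Rapamycin foci, -0.43 ± 0.19 in SF Placebo foci and 0.26 ± 0.19 in AAF/PH liver. The summed smooth muscle signal was 125 to 184 in SF Rapamycin foci, 129 to 134 in SF Placebo foci, 179 to 206 in AAF/PH liver and 137 to 153 in Adult Liver. Their part in the levels of Acta2 and Tagln was not tested.

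Other cell types moved beside the 9 genes. Against Adult Liver 6.53% of all genes were called in SF Rapamycin foci, 8.22% in SF Placebo foci and 20.0% in AAF/PH liver. Without rapamycin animal 2 the share in SF Rapamycin foci was 14.1%. Without Adult Liver animal 1 it was 1.55% there, and without Adult Liver animal 3 it was 1.96%. Biliary and oval cell markers gave 2 rises among 5 in SF Rapamycin foci, 3 in SF Placebo foci and 4 in AAF/PH liver. None was called in SF Rapamycin foci without Adult Liver animal 1, and 1 was without Adult Liver animal 2 or 3 or rapamycin animal 1 or 2. Cd24 rose by 1.40 ± 0.30 in SF Rapamycin foci, 2.39 ± 0.30 in SF Placebo foci and 2.54 ± 0.30 in AAF/PH liver. The summed biliary signal was 148 to 345 in SF Rapamycin foci, 323 to 565 in SF Placebo foci, 332 to 513 in AAF/PH liver and 93.3 to 109.9 in Adult Liver. Among its 5 markers the geometric mean in AAF/PH liver ran from 18.6 for Krt7 to 221 for Cd24. Of 6 hepatocyte markers none was called in SF Rapamycin foci (3 without rapamycin animal 2), 2 fell in SF Placebo foci and 3 fell in AAF/PH liver, with Apoa1 at -1.99 ± 0.27 in AAF/PH liver. Of 4 endothelial markers Kdr fell in all 3 groups, by 0.96 ± 0.23 in SF Rapamycin foci, 0.87 ± 0.23 in SF Placebo foci and 1.27 ± 0.23 in AAF/PH liver, and the call in SF Rapamycin foci was lost without Adult Liver animal 1 or 3, while 2 endothelial markers were called there without rapamycin animal 2. Of 6 macrophage markers, 3 fell in SF Rapamycin foci, 1 fell in SF Placebo foci and Adgre1 rose in AAF/PH liver, a call lost without Adult Liver animal 1. Of 4 lymphocyte and leukocyte markers Ptprc rose in AAF/PH liver, a call that was lost without AAF/PH animal 2 or 3 or any 1 Adult Liver animal, and 1 marker was called in SF Rapamycin foci without rapamycin animal 2. No marker was at 0 in any animal, but the lowest intensity among all deposited values was 2.14, so this does not show that a cell type was present. The part of these cell types in the 9 genes was not tested.

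**Figure D5:**
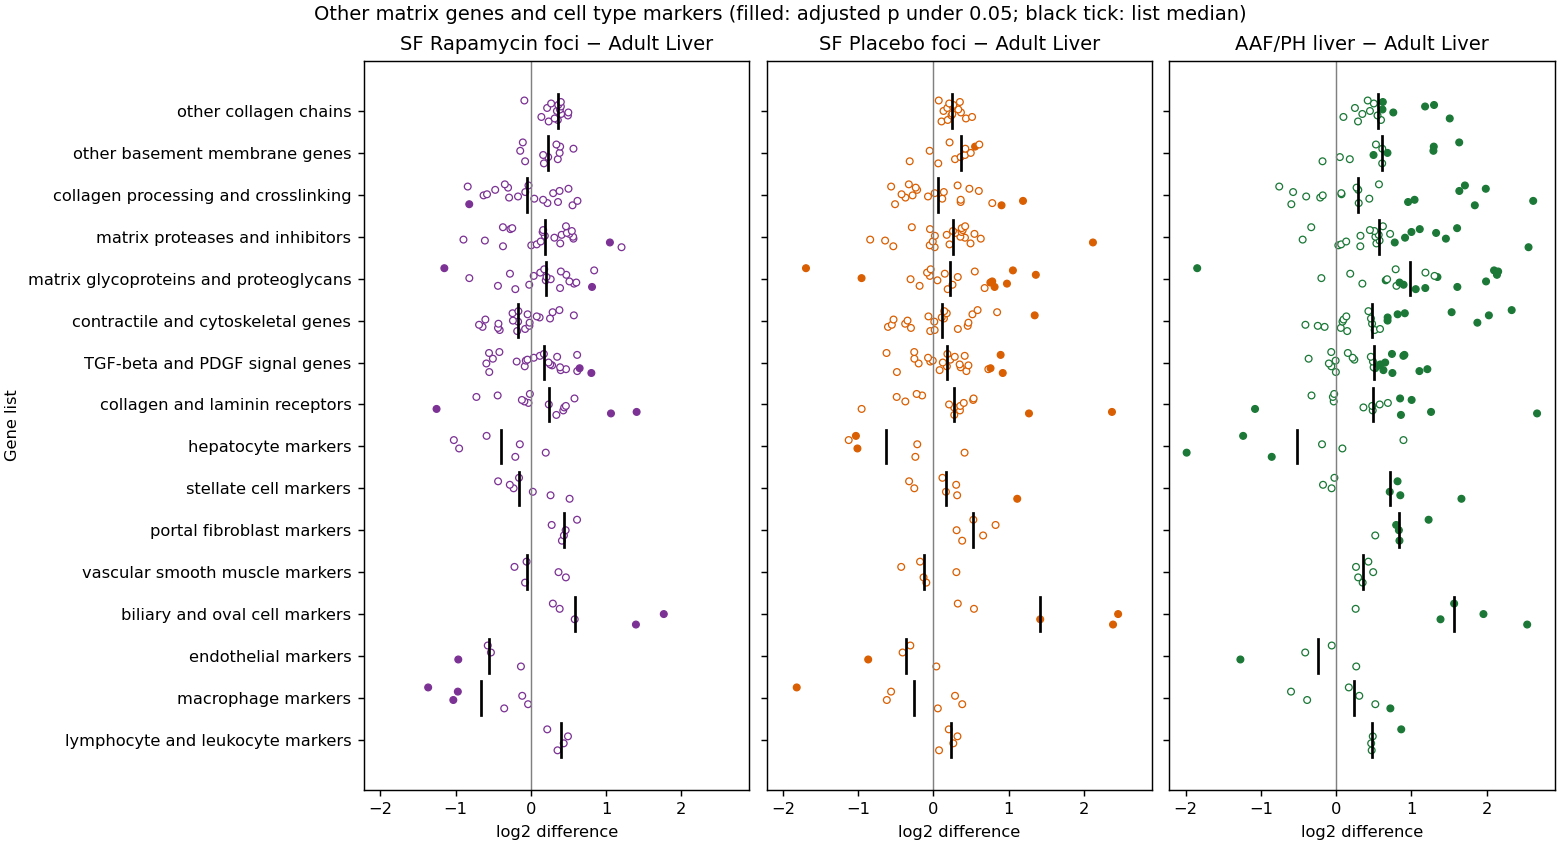
Log2 difference from Adult Liver (horizontal axis) of each gene in 8 matrix and contractile lists and 8 cell type marker lists, in SF Rapamycin foci, SF Placebo foci and AAF/PH liver. Dots are genes, filled where the adjusted p was under 0.05 (limma), and black ticks are list medians. Filled dots right of 0 are most numerous in AAF/PH liver, 11 of them among the matrix glycoproteins.

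Among all other genes, those whose level followed the mean of the 9 most closely over the 12 animals were Fstl1 (Pearson r 0.986), a secreted glycoprotein gene, Loxl2 (0.982), a lysyl oxidase relative, and Ptma (0.979), a nuclear protein gene. Lgals1, Fbn1, Tspan8, Plau, Flna, Kctd10 and Selenom followed, down to r 0.964. With the same genes passed over, the nearest single gene was Pcolce for Col1a1, Col12a1 for Col1a2, Loxl2 for Col3a1, Fbn1 for Col4a1, Loxl1 for Lox and Vim for Timp1. It was Dcdc2 for Lama5, Dus1l for Tagln and Golim4 for Acta2. These values describe likeness over animals that share the 4 groups, and the order was made by r itself, so they carry no test.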

How the data were processed

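Laser-captured liver from fixed, embedded sections was hybridized to Affymetrix Rat Gene ST 1.0 arrays after amplification with a kit for fixed tissue, per the labels' protocols. The deposited values are linear intensity per probe set, and per the submitters' processing notes the tools were RMA and Partek 6.6. Normalization settings and array batches were not given in the sources used here. For animal 3 of the rapamycin group the authors averaged 3 arrays, per the series' design text. Here log2 was taken without pseudocount, and these arrays were averaged on that scale.

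Of 28826 probe sets, 15209 had 1 gene symbol in the platform annotation, 306 several and 13311 none. The probe set with the highest mean was kept for 494 genes with more than 1. The 14497 genes were fitted in R 4.3.3 with limma 3.58.1 (lmFit, eBayes, 2-sided) as 4 group means over 12 animals, which left 8 residual degrees of freedom beside a prior of 6.38. Benjamini-Hochberg adjustment ran over all genes, and calls were made at 0.05. The number of arrays limits the precision.

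The 10 genes and the gene lists were chosen with earlier results of these data known. Each list names up to 4 genes of smallest p in AAF/PH liver and up to 3 in foci. Called genes that a count required by name were named after their values were seen. Coordinates and promoter sequences are from RefSeq, GRCr8, and promoter windows and motifs were searched with Python 3.11.15. The fit was tested on simulated data.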

Additional observations from a re-analysis of the deposited data

How the results depend on the processing

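The direction of every called difference of the 9 genes held under quantile normalization, median centring, a filter on dim genes, array weights, other averages of rapamycin animal 3, 2 groups alone, a replicate block, other probe set rules, a variance trend and leaving out each animal. The count of genes called in SF Placebo foci against Adult Liver was 3, and it was 7 with array quality weights and 6 with 2 groups alone, where 44.4% and 15.8% of all genes were called, beside 8.22%. In SF Rapamycin foci against Adult Liver it was 0, and 1 under quantile normalization, with 2 groups alone and without rapamycin animal 3. Those 3 fits called 6.28%, 1.45% and 6.68% of all genes, beside 6.53%. For SF Rapamycin foci against AAF/PH liver it was 9, and 5 with 2 groups alone, where 1.41% of all genes were called, beside 4.01%. Leaving out 1 animal gave 8 to 9 calls in AAF/PH liver against Adult Liver, beside 10.7% to 18.7% of all genes. In SF Placebo and SF Rapamycin foci against Adult Liver it gave 2 to 2 and 0 to 1, beside 4.18% to 7.63% and 1.55% to 14.1%. In SF Placebo and SF Rapamycin foci against AAF/PH liver it gave 5 to 9 and 7 to 9, beside 2.28% to 3.09% and 2.05% to 14.2%. Between foci it gave 0 to 0, beside at most 0.0207%. The 5 came without placebo animal 2, where 2.55% of all genes were called.

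Acta2 in AAF/PH liver was called under quantile normalization (1.34, limma adjusted p = 0.00032), array weights (0.57, adjusted p = 0.0159), 2 groups alone and the filter on dim genes. In that order these settings called 19.1%, 55.2%, 35.3% and 32.6% of all genes, beside 20.0% in the main fit. The sign turned for Timp1 in SF Rapamycin foci against Adult Liver without rapamycin animal 1 (range over fits that left out 1 animal: -0.034 to 0.59). Between foci it turned for Lama5 without placebo animal 3 or rapamycin animal 2 (range -0.071 to 0.038), for Acta2 with array weights (0.25) and without placebo animal 3 or rapamycin animal 3 (range -0.36 to 0.14), and for Timp1 without rapamycin animal 3 (range -0.58 to 0.043). None of these differences was called, and the cause was not tested.

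Among all genes 2900 were called in AAF/PH liver, 7996 with array weights and 5115 with 2 groups alone. Of those calls 37.7% were higher, against 22.5% with median centring. The labels state no pairing of animals by replicate number across groups. A correlation over 0.1 was found in 7 of 18 same-numbered pairs and in 15 of 36 other pairs, with medians of 0.008 and -0.003. Of 12 animals, 6 correlated best with their own number. These correlations cannot settle whether animals of the same number shared a batch. With the replicate block 8 of the 9 genes were called in AAF/PH liver, 2 in SF Placebo and 0 in SF Rapamycin foci against Adult Liver. The shares of all genes called there were 15.7%, 6.34% and 3.83%. Against AAF/PH liver 7 were called in SF Placebo and 8 in SF Rapamycin foci, beside 2.96% and 2.88% of all genes. Between foci it was 0, as for all genes. Col3a1 in SF Placebo foci against Adult Liver was lost (adjusted p = 0.0509). The list counts with 1 animal left out were added after seeing the data.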
